A study of Mus musculus with 6 samples.

Results

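The 4 genes Gfra1, Gfra2, Gfra3 and Ret encode parts of the cell surface receptor complex that binds GDNF, the glial cell line-derived neurotrophic factor, and its relatives. They were chosen by name, as the rows with these gene names among 41053 in the count files, and each of the 4 passed the filter on low counts that left 15263 genes tested. RNA was sequenced from cultured spermatogonial stem cells of adult mice, the cells that sustain sperm production and that can be kept outside the testis in a serum-free medium with growth factors. The 3 lines labelled Ephb2-KO had received a plasmid with a green fluorescent protein reporter and a guide RNA against Ephb2, and the 3 wild-type lines had received the reporter plasmid without a guide. Each line was derived by sorting fluorescent cells and subcloning and gave 1 library. Replicates 1 and 2 of either group were at passage 20 and replicate 3 of either group was at passage 18.

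GDNF binds GFRA1, a protein held on the outer membrane by a lipid anchor, and the bound pair draws in RET, a receptor tyrosine kinase that passes the signal into the cell through RAS and ERK, PI3K and AKT, and SRC kinases. GFRA2 and GFRA3 are relatives of GFRA1 that prefer other ligands, neurturin and artemin, and also act through RET. In the testis GDNF comes from Sertoli and other somatic cells, and signalling through GFRA1 and RET in undifferentiated spermatogonia is needed for self-renewal of the stem cells. Gfra1 and Ret are therefore used as markers of the stem cell compartment.

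Total counts ran from 21772404 to 33140336 in the libraries labelled Ephb2-KO and from 24928648 to 34047758 in wild-type libraries. Expression is given as CPM, a gene's count scaled to the normalised total of its library, and 3 counts in a single library corresponded to between 0.0803 and 0.147 CPM. Ephb2, the gene that the guide targets, stood at 37.1, 16.5 and 13.4 CPM in libraries labelled Ephb2-KO replicates 1, 2 and 3, against 21.3, 27.1 and 10.8 CPM in wild-type replicates 1, 2 and 3, so its mRNA level does not check the labels. Libraries with the same replicate number lay close together, so the number is followed beside every result. The identity of the cultures was checked against markers. Ddx4 and Dazl, genes of the germline, stood between 83.7 and 290.4 CPM and between 696 and 1382 CPM. Markers of Leydig cells summed to between 1.11 and 2.12 CPM, those of macrophages to between 7.72 and 21.1 CPM, and those of Sertoli cells to between 57.6 and 101 CPM. In the Sertoli list Sox9 had 16.5 to 41.8 CPM, Wt1 16.1 to 37.3 CPM and Gata4 9.08 to 19.3 CPM, while Amh had at most 0.197 CPM and Fshr 0 counts. Collagen and other fibroblast or stromal genes were abundant, with 0.619%, 0.690% and 2.21% of counts in libraries labelled Ephb2-KO replicates 1, 2 and 3, against 0.401%, 0.567% and 1.90% in wild-type replicates 1, 2 and 3.

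In GRCm38 coordinates Gfra1 spans 58235604 to 58455909 on chromosome 19 (minus strand), with 5476 bases of annotated exon. Ret spans 118151748 to 118197744 on chromosome 6 (minus strand), with 7341 bases of exon. Gfra2 spans 70890130 to 70979838 on chromosome 14 (plus strand), with 3462 bases, and Gfra3 spans 34689903 to 34720387 on chromosome 18 (minus strand), with 1992 bases. In the exons listed in the count files, none of these 4 genes overlapped another gene on the same strand. Reads were counted over all annotated exons, coding and untranslated, so isoforms of a gene are not separated.

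The coding sequences of the 3 GFRA genes are related, which matters for telling their reads apart. Aligned base by base, those of Gfra1 and Gfra2 were identical at 68.6% of 1308 positions, Gfra1 and Gfra3 at 67.5% of 1078, and Gfra2 and Gfra3 at 66.6% of 1123. The longest run of bases shared without a difference was 28 between Gfra1 and Gfra2, 11 between Gfra1 and Gfra3 and 10 between Gfra2 and Gfra3.

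Gfra1, the GDNF-binding subunit, was abundant in every library. It stood at 149, 232 and 125 CPM in libraries labelled Ephb2-KO replicates 1, 2 and 3, from 5279, 5157 and 2538 counts. In wild-type replicates 1, 2 and 3 it stood at 147, 246 and 100.01 CPM, from 5472, 6269 and 2424 counts. The groups overlapped, replicate 2 was highest in each group and replicate 3 lowest. Group means were 168.5 ± 56.4 CPM in libraries labelled Ephb2-KO and 164 ± 74.4 CPM in wild-type libraries (SD, n = 3 each).

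Ret, the signalling kinase, followed at nearly the same number of reads. It had 164, 181 and 77.8 CPM in libraries labelled Ephb2-KO replicates 1, 2 and 3, against 136, 209.9 and 72.9 CPM in wild-type replicates 1, 2 and 3. As with Gfra1, replicate 2 was highest and replicate 3 lowest in each group, and the groups overlapped. Means were 141 ± 55.3 CPM in libraries labelled Ephb2-KO and 139 ± 68.6 CPM in wild-type libraries (SD, n = 3 each).

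Gfra2, the receptor subunit that prefers neurturin, ran in another order. It had 9.08, 17.3 and 35.0 CPM in libraries labelled Ephb2-KO replicates 1, 2 and 3, against 6.11, 17.5 and 25.6 CPM in wild-type replicates 1, 2 and 3. Replicate 3 was highest and replicate 1 lowest in each group, and the groups overlapped. Its highest library stood 5.73-fold above its lowest, against 2.46-fold for Gfra1, 2.88-fold for Ret and 2.14-fold for Gfra3. Means were 20.5 ± 13.2 CPM in libraries labelled Ephb2-KO and 16.4 ± 9.80 CPM in wild-type libraries (SD, n = 3 each).

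Gfra3, the artemin-preferring subunit, was the member with the fewest reads, 1748 over the 6 libraries against 27139 for Gfra1. It had 13.2, 14.3 and 6.78 CPM in libraries labelled Ephb2-KO replicates 1, 2 and 3, against 9.86, 11.6 and 6.68 CPM in wild-type replicates 1, 2 and 3. Replicate 3 was lowest in each group, and the groups overlapped. Means were 11.4 ± 4.04 CPM in libraries labelled Ephb2-KO and 9.38 ± 2.49 CPM in wild-type libraries (SD, n = 3 each).

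**Figure D1:**
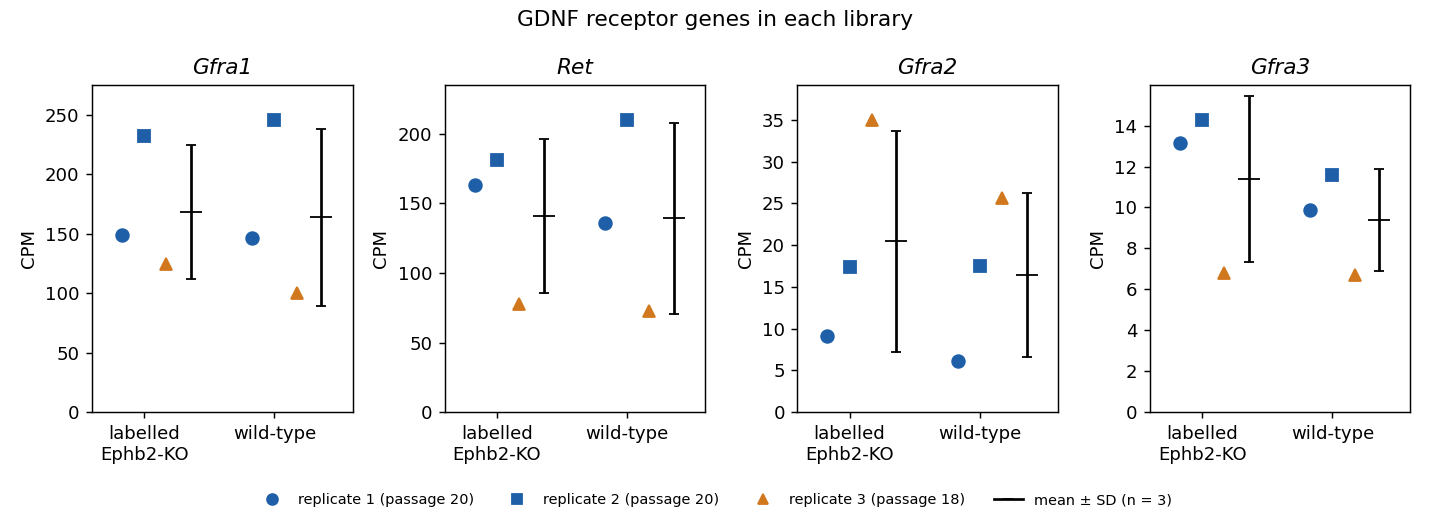
CPM of the 4 receptor genes in each library, with libraries labelled Ephb2-KO on the left and wild-type libraries on the right of each panel, point shape and colour by replicate number and passage, and black bars for the mean ± SD of 3 libraries. The groups overlap for every gene, and the passage 18 libraries are lowest for Gfra1, Ret and Gfra3 and highest for Gfra2.

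Levels of different genes were compared as CPM per kilobase of exon. On that scale Gfra1 was at 30.8 ± 10.3 in libraries labelled Ephb2-KO and 30.0 ± 13.6 in wild-type libraries, and Ret at 19.2 ± 7.53 and 19.0 ± 9.34 (SD, n = 3 each). Gfra2 was at 5.91 ± 3.82 in libraries labelled Ephb2-KO and 4.74 ± 2.83 in wild-type libraries, and Gfra3 at 5.72 ± 2.03 and 4.71 ± 1.25. The order Gfra1 above Ret held in each of the 6 libraries, although the SDs of these neighbours overlapped. The ratio of Ret to Gfra1 per length was 0.820, 0.582 and 0.466 in libraries labelled Ephb2-KO replicates 1, 2 and 3, against 0.690, 0.637 and 0.544 in wild-type replicates 1, 2 and 3. Gfra2 and Gfra3 did not differ beyond their spread over libraries. Gfra3 was above Gfra2 in replicates 1 and 2 of each group, and Gfra2 was above Gfra3 in replicate 3 of each group.

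Gfra4, which encodes the subunit for persephin, is the relative of these genes measured beside them. It had 9.70, 14.5 and 9.53 CPM in libraries labelled Ephb2-KO replicates 1, 2 and 3, against 15.3, 16.7 and 11.6 CPM in wild-type replicates 1, 2 and 3, from exons of which some overlap 1 other gene on the same strand, where reads were left out. Over Gfra1 to Gfra4, the share of the summed level per length held by Gfra1 was 66.5%, 69.2% and 56.0% in libraries labelled Ephb2-KO replicates 1, 2 and 3, against 66.0%, 70.7% and 53.2% in wild-type replicates 1, 2 and 3. The share held by Gfra2 was 6.41%, 8.17% and 24.8%, against 4.35%, 7.96% and 21.5% in the same order. Gfra1 was thus the main member of its family in every library, and the share of Gfra2 was highest in both passage 18 libraries.

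**Figure D2:**
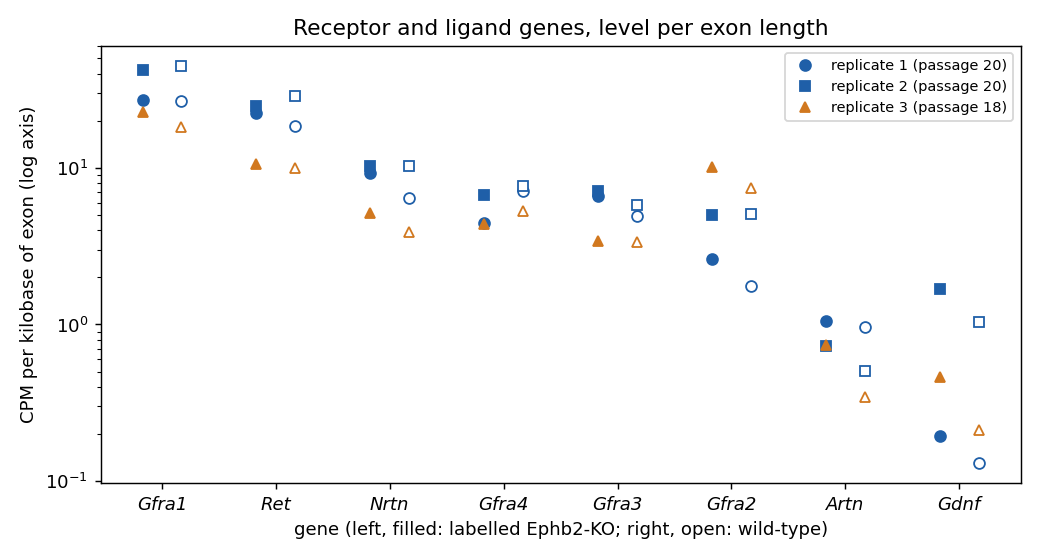
CPM per kilobase of exon, on a log axis, for the receptor and ligand genes with counts in every library, with filled points on the left for libraries labelled Ephb2-KO and open points on the right for wild-type libraries. Gfra1 and Ret lie above the other genes in each library, and Gdnf and Artn are lowest.

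The comparison of the lines labelled Ephb2-KO with the wild-type lines asks how the transcriptome differs when the guide against Ephb2 has been used. By edgeR's quasi-likelihood test 0 of the 4 genes passed an adjusted p of 0.05, where 0% of all genes tested did. For these genes 0 of 4 had an unadjusted p under 0.05, and DESeq2 called 0 of 4. Over all genes 32 had an unadjusted p under 0.05 and DESeq2 called 4. The 32 are far below a 0.05 share of the 15263 tested, so this fit is conservative. It leaves the differences between replicate numbers in its spread, which widens its intervals. The log2 fold change was 0.04 for Gfra1 (95% interval -0.87 to 0.94) and 0.01 for Ret (-1.05 to 1.08). It was 0.32 for Gfra2 (-1.20 to 1.84) and 0.28 for Gfra3 (-0.67 to 1.24). The edgeR adjusted p was 1.0 for each of the 4. A 2-fold difference lay inside the intervals of Gfra2, Gfra3 and Ret and just outside that of Gfra1. The exact two-sided permutation test of CPM gave p = 0.9 for Gfra1, 0.7 for Gfra2, 0.5 for Gfra3 and 1.0 for Ret, where 3 libraries against 3 cannot go below 0.1.

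With the replicate number as a block, which takes out the differences between numbers, the intervals were narrower and again 0 of 4 genes passed, where 0.0262% of all genes tested did (0.00655% higher and 0.0197% lower). DESeq2 with the block also called 0 of 4. The blocked log2 fold change was 0.08 for Gfra1 (95% interval -0.18 to 0.35), 0.05 for Ret (-0.22 to 0.33), 0.33 for Gfra2 (-0.05 to 0.72) and 0.25 for Gfra3 (-0.16 to 0.66). A 2-fold change lay outside each of these 4 intervals, which borrow their spread in part from other genes. The edgeR adjusted p was 0.886, 0.939, 0.741 and 0.785 in the same order. Of the 15 fibroblast or stromal genes 14 lay above 0 between the groups, with a median log2 fold change of 0.24 without the block and 0.34 with it. By edgeR 0 of the 15 passed in either fit, 0 and 8 had an unadjusted p under 0.05, where 32 and 987 of all 15263 genes did, and DESeq2 called 0 and 1. Their part in the values of the receptor genes was not tested.

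Within pairs of the same replicate number, the directions were mixed for 3 of the genes. Gfra1 differed, as the library labelled Ephb2-KO minus the wild-type one on the log2 scale, by 0.02 in pair 1, -0.08 in pair 2 and 0.32 in pair 3. Ret differed by 0.27, -0.21 and 0.09, and Gfra2 by 0.57, -0.01 and 0.45, in pairs 1, 2 and 3. Gfra3 lay above 0 in 3 of 3 pairs, by 0.41, 0.30 and 0.02. The difference at passage 20 (pairs 1 and 2) minus that at passage 18 (pair 3) was itself tested with edgeR, taking pair 3 to vary like the others. It was -0.35 (SE 0.32) for Gfra1, -0.17 (SE 0.47) for Gfra2, 0.34 (SE 0.52) for Gfra3 and -0.06 (SE 0.33) for Ret. The adjusted p was 1.0 for each, and of 15263 genes 0 passed and 159 had an unadjusted p under 0.05. The 159 are also far below a 0.05 share of genes, so this test is conservative and cannot show that the differences are equal.

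**Figure D3:**
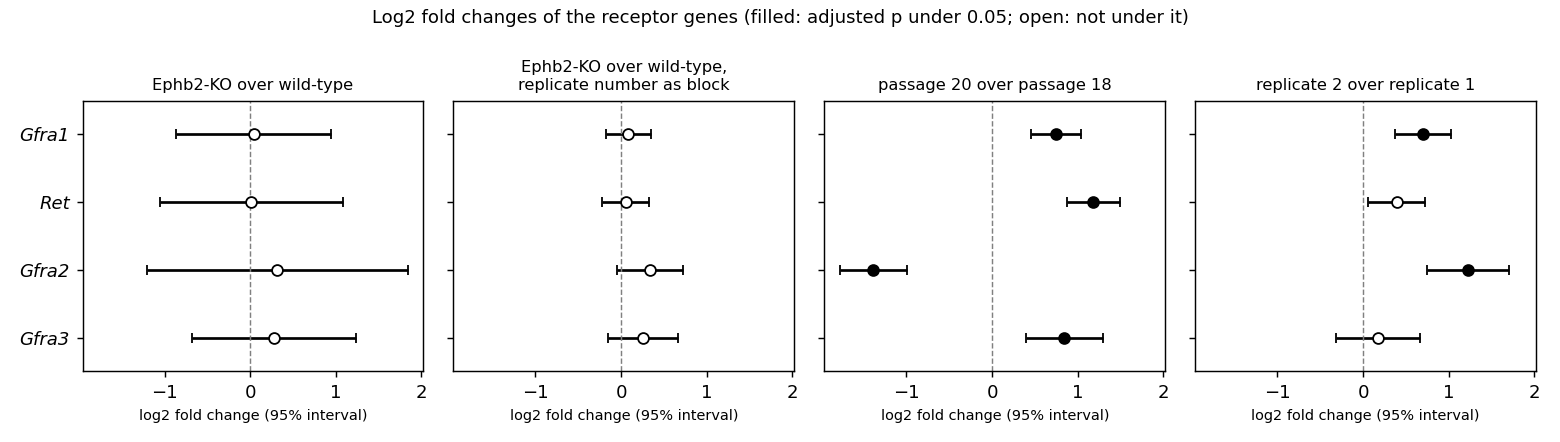
Log2 fold changes of the 4 receptor genes with 95% intervals from edgeR, filled where the adjusted p is under 0.05, in the comparison of the groups without and with the replicate block, of passage 20 over passage 18 and of replicate 2 over replicate 1. The intervals span 0 for every gene between the groups, and lie to the right of 0 for Gfra1, Ret and Gfra3 and to the left for Gfra2 between passages.

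The genes also differed between replicate numbers. Gfra1, Ret and Gfra3 were higher and Gfra2 was lower in the passage 20 lines than in the passage 18 lines, in a fit with the group as a term. By edgeR 4 of 4 passed, 3 higher and 1 lower, where 48.0% of all genes tested passed, 23.0% higher and 25.0% lower, so the count of receptor genes is read against a background of close to 1 gene in 2. Passage 18 and replicate number 3 cannot be told apart, since the libraries at passage 18 are the 2 numbered 3. Whether same-numbered lines came from 1 starting culture is not in the labels. The p-values of this fit, used below for replicate 2 over replicate 1 too, measure only the spread left between same-numbered lines. That spread, taken after the mean group difference, may be technical. The spread between replicate numbers is not part of it, and passage 18 has only number 3.

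Ret had the largest difference among the 3 higher genes. It averaged 173 ± 31.2 CPM at passage 20 (SD, n = 4) and 75.4 ± 3.495 CPM at passage 18 (SD, n = 2), with a range of 136 to 209.9 against 72.9 to 77.8 CPM. The log2 fold change was 1.18 (SE 0.14, edgeR adjusted p = 5.59e-05). Gfra1 averaged 193 ± 53.0 CPM at passage 20 (SD, n = 4) and 112 ± 17.4 CPM at passage 18 (SD, n = 2), with log2 fold change 0.75 (SE 0.13, edgeR adjusted p = 0.000920). Without wild-type replicate 3 the call for Gfra1 was lost, at 0.58 and an adjusted p of 0.0843. Gfra3 averaged 12.2 ± 1.92 CPM at passage 20 (SD, n = 4) and 6.73 ± 0.0665 CPM at passage 18 (SD, n = 2), with log2 fold change 0.84 (SE 0.21, edgeR adjusted p = 0.00604). Its call was lost without either passage 18 library, with an adjusted p of 0.187 without Ephb2-KO replicate 3 and 0.0565 without wild-type replicate 3.

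Gfra2 went the other way. It averaged 12.5 ± 5.80 CPM at passage 20 (SD, n = 4) and 30.3 ± 6.61 CPM at passage 18 (SD, n = 2), with log2 fold change -1.39 (SE 0.18, edgeR adjusted p = 9.66e-05). The ranges, 6.11 to 17.5 against 25.6 to 35.0 CPM, did not overlap. The calls for Gfra2 and Ret held without any single library.

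Other cell markers moved with passage too, where 48.0% of all genes tested passed, 23.0% higher and 25.0% lower at passage 20. Of 15 fibroblast or stromal genes 1 was higher and 14 were lower at passage 20, with a median log2 fold change of -2.29 against 0.03 over all genes, and none of the 15 was at 0 in any library. Their summed level ran from 3660 to 7204 CPM at passage 20 and from 19535 to 23631 CPM at passage 18. Of 23 tested stem and progenitor spermatogonia genes 16 were higher and 0 lower at passage 20, with a median of 0.77, and Etv5 and Id4 were among them. Etv5 was higher in replicate 2 alone, with 23.3 and 24.7 CPM in Ephb2-KO and wild-type replicate 1, against 31.9 and 31.2 CPM in replicate 3. The stem and progenitor list summed to between 2810 and 3426 CPM at passage 20 and to between 1665 and 1911 CPM at passage 18. Of 10 tested differentiating spermatogonia genes 4 were higher and 1 lower at passage 20, with a median of 0.34. In bulk RNA, fewer cells of a type and less RNA per cell cannot be told apart, and the part of these shifts in the values of the receptor genes was not tested.

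Set against the summed level of the stem and progenitor list, the receptor genes were spread differently. The list holds none of the receptor genes and shares Etv5, Id4 and others with the GDNF-responsive list. Dazl was the largest part of the sum in every library. It made up 1351 of 3426 CPM in Ephb2-KO replicate 1 and 1382 of 3288 CPM in wild-type replicate 2. Gfra1 was 4.34%, 7.94% and 7.49% of that sum in libraries labelled Ephb2-KO replicates 1, 2 and 3, against 5.22%, 7.47% and 5.23% in wild-type replicates 1, 2 and 3. Passage 18 libraries then lay inside the range of passage 20 libraries. Ret was 4.77%, 6.20% and 4.68%, against 4.82%, 6.38% and 3.81%, so that replicate 3 stayed lowest in each group by a smaller margin. Gfra3 was 0.384%, 0.488% and 0.407%, against 0.351%, 0.353% and 0.350%, and Gfra2 was 0.265%, 0.593% and 2.10%, against 0.217%, 0.532% and 1.34%. On this scale Gfra2 remained highest in both passage 18 libraries.

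**Figure D4:**
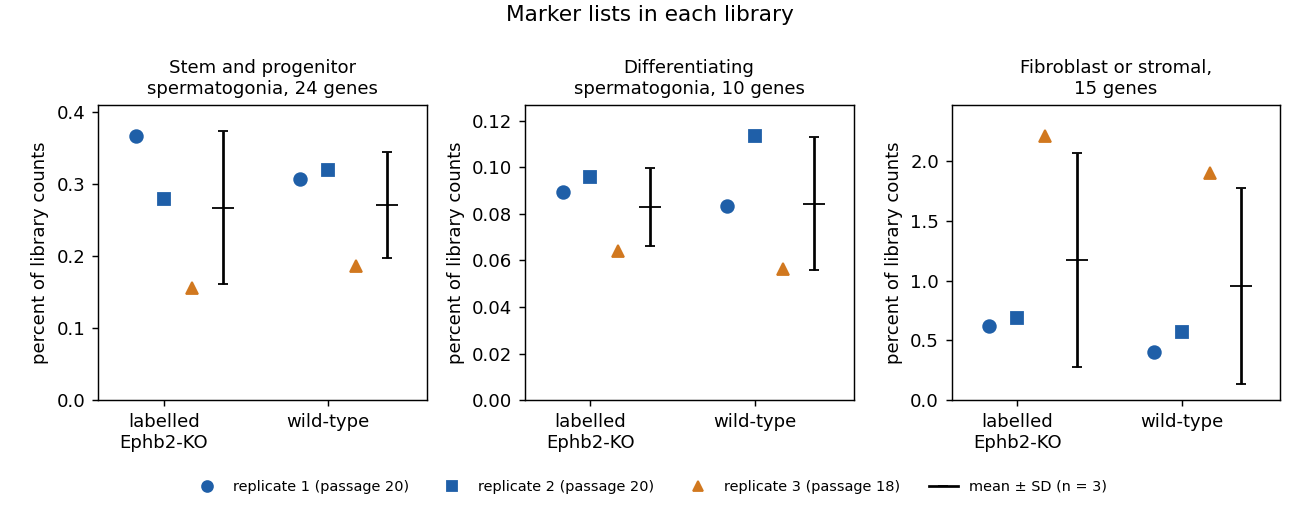
Percent of library counts in markers of stem and progenitor spermatogonia, differentiating spermatogonia and fibroblast or stromal cells, with libraries labelled Ephb2-KO on the left and wild-type libraries on the right, point shape and colour by replicate number and passage, and black bars for the mean ± SD of 3 libraries. The passage 18 libraries are lowest for both germ cell lists and highest, at 2.21% and 1.90%, for the fibroblast or stromal list.

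At a single passage the lines also differed. Replicate 2 exceeded replicate 1 for Gfra1 and Gfra2, both at passage 20, and 2 of 4 genes passed by edgeR, where 16.5% of all genes tested did. Gfra1 averaged 239 CPM in the replicate 2 libraries and 148 CPM in the replicate 1 libraries (log2 fold change 0.70, SE 0.15, adjusted p = 0.0111). Gfra2 averaged 17.4 CPM in the replicate 2 libraries and 7.59 CPM in the replicate 1 libraries (log2 fold change 1.23, SE 0.22, adjusted p = 0.00466). Ret did not pass, with a log2 fold change of 0.39 (95% interval 0.06 to 0.73, adjusted p = 0.104), but it passed without Ephb2-KO replicate 1 (0.56, adjusted p = 0.0326) and without Ephb2-KO replicate 2 (0.59, adjusted p = 0.0400). Gfra3 had 0.17 (95% interval -0.32 to 0.67, adjusted p = 0.629).

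The ligands were measured in the same cultures, with Gdnf, Artn and Pspn at low levels. Gdnf, the ligand of GFRA1, had 0.676, 5.90 and 1.62 CPM in libraries labelled Ephb2-KO replicates 1, 2 and 3, against 0.455, 3.64 and 0.743 CPM in wild-type replicates 1, 2 and 3, from 17 to 131 counts. Replicate 2 was highest in each group, and the groups overlapped. Replicate 2 over replicate 1 had a log2 fold change of 3.06 (SE 0.42, edgeR adjusted p = 0.00132). Between the groups Gdnf lay above 0 in 3 of 3 pairs, by 0.50, 0.68 and 1.05 on the log2 scale. It did not pass without the block (0.76, SE 1.03, adjusted p = 1.0) or with it (0.79, SE 0.33, unadjusted p = 0.0380, adjusted p = 0.741). The share of counts in fibroblast or stromal genes was also higher on the Ephb2-KO side within 3 of 3 pairs, and its part in the values of Gdnf was not tested.

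Nrtn, which encodes neurturin, had 9.50, 10.5 and 5.30 CPM in libraries labelled Ephb2-KO replicates 1, 2 and 3, against 6.62, 10.5 and 4.002 CPM in wild-type replicates 1, 2 and 3. Per kilobase of exon it averaged 7.57 ± 2.75 CPM, against 5.32 ± 3.08 for Gfra2 and 5.22 ± 1.61 for Gfra3 (SD over the 6 libraries). Nrtn was higher at passage 20 (log2 fold change 0.99, SE 0.23, edgeR adjusted p = 0.00470). Artn, which encodes artemin, had between 0.825 and 2.54 CPM and passed in none of the 3 comparisons. Like Gdnf, it lay above 0 between the groups in 3 of 3 pairs, by 0.12, 0.51 and 1.04 on the log2 scale. Pspn, which encodes persephin, had 5 counts over the 6 libraries and was not tested. Between the groups 0 of the 3 tested ligands passed, with or without the block, and DESeq2 called 0. At an unadjusted p under 0.05 there were 0 without the block and 1, Gdnf, with it.

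Other binding partners of the receptors differed between replicate numbers in both directions. Ncam1, a cell adhesion molecule that can bind GDNF together with GFRA1, had 8.94, 15.5 and 41.0 CPM in libraries labelled Ephb2-KO replicates 1, 2 and 3, against 7.63, 14.6 and 31.6 CPM in wild-type replicates 1, 2 and 3. Like Gfra2, it was lower at passage 20 (log2 fold change -1.69, SE 0.16, edgeR adjusted p = 9.41e-06) and higher in replicate 2 than in replicate 1 (0.87, SE 0.20, adjusted p = 0.0142). Gas1, a relative of the GFRA proteins that binds RET, had 16.9, 9.18 and 103.7 CPM, against 11.7, 6.58 and 84.3 CPM in the same order. Its log2 fold change was -3.16 between passages (SE 0.13, edgeR adjusted p = 6.38e-08). Sorl1, a sorting receptor for GDNF and GFRA1, and Cdh1, the adhesion protein E-cadherin, were higher at passage 20 (1.47, SE 0.30, and 2.21, SE 0.42, adjusted p = 0.00589 and 0.00431).

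Of the 8 tested genes of that list 2 were higher and 3 lower at passage 20, where 48.0% of all genes tested passed, Itgb1, an integrin subunit, being the other lower one (-0.47, SE 0.12). Lrig1, a membrane protein that restrains RET, ranged from 113 to 175 CPM, with a log2 fold change of -0.03 (SE 0.18) between passages and -0.07 (SE 0.22) between the groups. Between the groups 0 of the 8 passed with or without the block, and 0 and 2 had an unadjusted p under 0.05, where 987 of 15263 genes had one with the block. The 2 were Gas1 (blocked edgeR log2 fold change 0.43, SE 0.13, unadjusted p = 0.00770) and Sdc3, a heparan sulphate proteoglycan that binds GDNF (0.72, SE 0.23, unadjusted p = 0.0107). Each lay above 0 in 3 of 3 pairs, with an edgeR adjusted p of 0.741. Ncam1 also lay above 0 in 3 of 3 pairs, by 0.23, 0.08 and 0.38 on the log2 scale. The share of counts in fibroblast or stromal genes was higher on that side too, within 3 of 3 pairs, and its part in these values was not tested. Gfra4 lay below 0 in 3 of 3 pairs (blocked -0.38, SE 0.18, adjusted p = 0.741). Gfral, the receptor for GDF15, had 0 counts in each library, which allows up to 0.147 CPM, and Gdf15 itself had 23 counts in all.

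Downstream of RET, none of the pathway genes passed between the groups. Of 26 tested adaptor and docking proteins 0 passed (19 above 0, 7 below, median log2 fold change 0.07 against 0.01 over all genes). Of 25 kinases 0 passed (15 above, 10 below, median 0.02), and of 16 genes that inhibit RET signalling or turn the receptor over 0 passed (11 above, 5 below, median 0.06). Of 18 GDNF-responsive genes 0 passed (6 above, 12 below, median -0.06). At an unadjusted p under 0.05 there were 0 in each of these 4 lists without the block, and 0, 2, 0 and 2 with it, where 987 of all 15263 genes had one with the block. DESeq2 called 0 in each. With the block the smallest p values were those of Nck1, an adaptor (-0.23, SE 0.12), and Gab2, a docking protein (0.35, SE 0.20), in the first list. In the next ones they were those of the kinase gene Mapk8 (-0.29, SE 0.12) and the PI3K subunit gene Pik3r1 (0.27, SE 0.12), and of the ERK inhibitor gene Spry4 (-0.27, SE 0.13) and Sh3kbp1, which takes part in receptor uptake (0.24, SE 0.14). Among responsive genes the transcription factor gene Egr2 had -0.36 (SE 0.12, unadjusted p = 0.00954) and Nanos2, an RNA-binding protein of stem cells, -0.35 (SE 0.14). For these 8 genes edgeR's adjusted p with the block ran from 0.741 to 0.754.

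Between replicate numbers the feedback inhibitors and responsive genes passed in larger numbers. The replicate 2 libraries held the highest Etv5, a transcription factor induced by GDNF in stem spermatogonia, with 218 CPM in the library labelled Ephb2-KO and 252 CPM in the wild-type one. In replicates 1 and 3 it had between 23.3 and 31.9 CPM. Replicate 2 over replicate 1 had a log2 fold change of 3.29 (SE 0.15, edgeR adjusted p = 1.09e-06) for Etv5. Of 18 responsive genes 8 were higher and 1, Mycn, was lower in replicate 2, and of 16 inhibitors 9 were higher and 0 lower, where 8.14% of all genes were higher and 8.35% lower. Spry4, Dusp6 and Spred2, inhibitors of ERK signalling that this signal induces, had 2.501 (SE 0.16), 1.72 (SE 0.14) and 1.96 (SE 0.17), and were chosen, like Egr3 below, after their values were seen. Bcl6b, Id4 and Nanos2 did not pass in that comparison, at 0.45 (SE 0.24), 0.32 (SE 0.19) and 0.07 (SE 0.18), nor did Lhx1, at -0.35 (SE 0.47).

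Between passages 12 of the 18 responsive genes were higher and 1, Etv1, was lower at passage 20, and 11 of the 16 inhibitors were higher and 3 lower. Passage 20 here is the mean of replicates 1 and 2, so a gene can pass through replicate 2. In each group Dusp6 and Spred2 had lower CPM in replicate 1 than in replicate 3, while Spry4 had higher CPM. Among responsive genes Etv5 had 1.25 (SE 0.13), Bcl6b 1.06 (SE 0.22), Lhx1 2.09 (SE 0.50), Id4 0.79 (SE 0.18), Nanos2 0.72 (SE 0.16) and Egr3 3.00 (SE 0.20), each past an edgeR adjusted p of 0.05. Etv5 was higher than at passage 18 in replicate 2 alone. It had 23.3 and 24.7 CPM in Ephb2-KO and wild-type replicate 1, against 31.9 and 31.2 CPM in replicate 3. The adaptors went both ways, with 6 of 26 higher and 9 lower, as did the kinases, with 7 of 25 higher and 6 lower, both near the 23.0% higher and 25.0% lower over all genes tested. Src, a kinase activated by RET, was higher at passage 20 (1.14, SE 0.15), and Akt1 was lower (-0.77, SE 0.12).

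**Figure D5:**
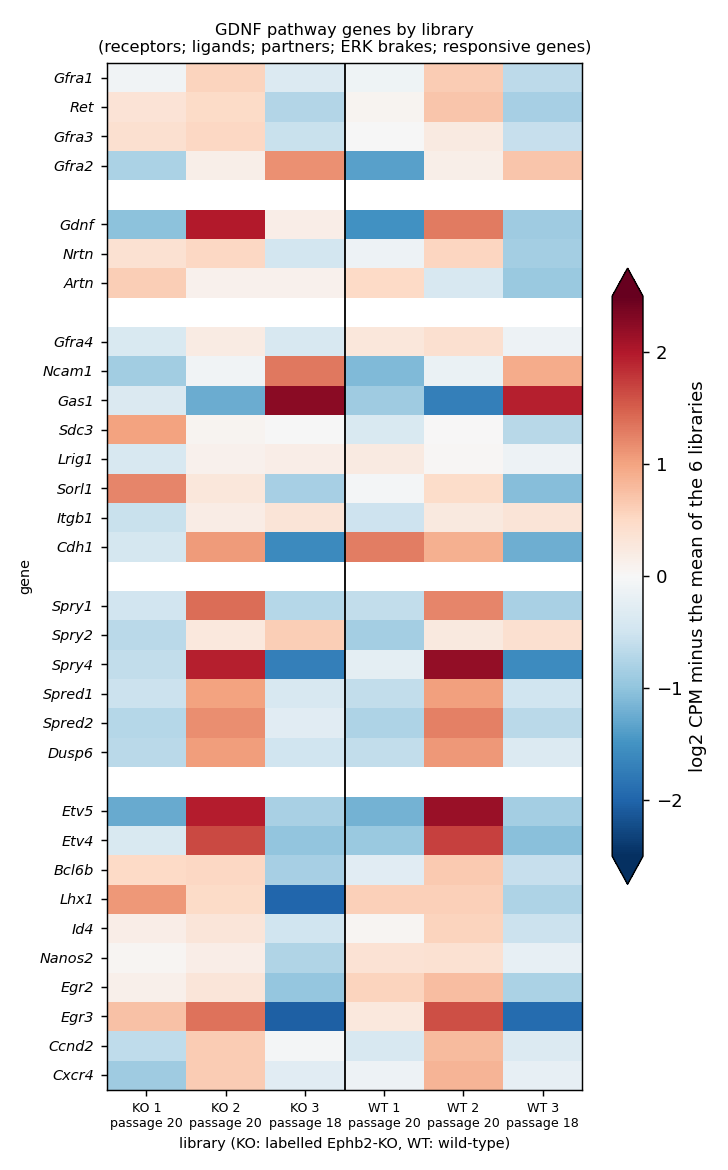
Log2 CPM minus the mean of the 6 libraries, for the receptor genes, ligands, partners, ERK inhibitors and GDNF-responsive genes, with the 3 libraries labelled Ephb2-KO left of the line and the 3 wild-type libraries right of it. Colours of many genes repeat between the groups by replicate number, though not those of Lrig1, Sdc3 and Cdh1. Etv5, Spry4 and Gdnf are highest in replicate 2 of each group.

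For each receptor gene, the genes with the most similar course over the 6 libraries were found by the root mean square difference between log2 CPM values, each centred on its own mean, among 11391 other genes with a mean of at least 5 CPM. This is a description over 6 libraries that share 3 replicate numbers. Gfra1 was closest to Cdc25a, a phosphatase that drives cell cycle entry, Pla2g6, a phospholipase, and Zfp532, a zinc finger gene, at 0.05, 0.06 and 0.06, where the median gene lay at 0.53. Ret was closest to Rrp12, a ribosome assembly factor, Robo1, a receptor for SLIT ligands, and Slc23a2, a vitamin C transporter, at 0.05 each, with a median gene at 0.63. Gfra2 was closest to Trim8, Bcat1 and Sardh, at 0.05, 0.09 and 0.10, with a median gene at 0.92. Bcat1 and Sardh encode enzymes of amino acid metabolism. Gfra3 was closest to Pmel, 4933416M07Rik and Lsm12, at 0.08 each, with a median gene at 0.49. Among the receptor genes themselves Gfra1 and Ret lay 0.26 apart, which placed Ret at rank 975 from Gfra1, and Gfra3 and Ret lay 0.24 apart. Gfra2 lay 1.04, 1.26 and 1.14 from Gfra1, Ret and Gfra3, farther than the median gene of each.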

How the data were processed

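RNA from 6 cultured lines was compared, 3 labelled Ephb2-KO and 3 wild-type. The authors deposited unnormalized counts of reads, 1 file a library. Per the file headers they used featureCounts 1.4.6-p4 on merged alignments, with GENCODE vM3 exons grouped by gene name and strand setting 2. No option in that command counts reads that fall on several genes, so those were left out. The submitters' processing notes name STAR, FastQC and GRCm38.p3, and further settings were not given in the sources. The files held 41053 gene names, no summary lines and 0 columns of other series.

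Tests used edgeR 4.0.16 under R 4.3.3 (filterByExpr, TMM scaling, glmQLFit with robust estimation, glmQLFTest), with Benjamini-Hochberg adjustment over 15263 tested genes and a threshold of 0.05. The groups were compared with no covariate, and passages and replicate numbers in a fit with group and number. SE is the log2 fold change over the square root of F, and 95% intervals use the fit's degrees of freedom. Log2 CPM values use a prior count of 2. DESeq2 1.42.0, RLE size factors, other filters, the block and leaving out libraries were alternatives. Scripts were tested on simulated counts. A minimum recovery of planted changes was required there for every comparison except the unblocked one between the groups. Coding sequences came from GENCODE vM21 on GRCm38 and were aligned with Biopython 1.88. Figures were drawn with matplotlib 3.10.9.

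Same-numbered libraries deviated together from their group means (r over genes 0.596, 0.736 and 0.850 for numbers 1, 2 and 3, against at most 0.0790 with another number). Deviations cancel out over the libraries of a group, so a high r with the same number itself lowers the r with other numbers. The bound of 0.1 on the r with other numbers was met, but is therefore a weak check of pairing. The numbers themselves come from the sample titles. The block lowered edgeR's common coefficient of variation to 0.166, against 0.440 unblocked. Chi-square over degrees of freedom between libraries was 21.8 to 314, so none was a duplicate. Intervals and floors from counts cover counting error only.

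The members, gene lists and tests were chosen with earlier results of these data known. Named were the 4 members, Ephb2, all ligands and binding partners, and from each other pathway list the 2 genes with the smallest blocked p, since none passed, with Etv5, Bcl6b, Lhx1, Id4 and Nanos2, and the 3 genes closest to each member. Etv1, Mycn, Src, Akt1 and the marker genes were named after their values were seen. Of the listed genes 1, Adgre1, was not found by name. The stretch most alike between a pair of the receptor genes is not reported here.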

Additional observations from a re-analysis of the deposited data

How the results depend on the processing

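Between the groups no alternative made any of the 4 genes pass. Adjusted p over the alternatives ran from 0.585 to 1.0 for Gfra1, 0.288 to 1.0 for Gfra2, 0.728 to 1.0 for Gfra3 and 0.529 to 1.0 for Ret. The directions of Gfra1 and Ret turned in 5 and 6 of 16 alternatives and that of Gfra2 in 2, while Gfra3 stayed above 0. With the passage 20 libraries alone the log2 fold change was -0.042 for Gfra1 and -0.0025 for Ret. Leaving out libraries or pairs, it ran from -0.26 to 0.45 for Gfra1, from -0.31 to 0.80 for Gfra2, from 0.09 to 0.55 for Gfra3 and from -0.29 to 0.43 for Ret, and the lowest values came without Ephb2-KO replicate 2 (Gfra1), without Ephb2-KO replicate 3 (Gfra2) and without wild-type replicate 3 (Ret). Over all genes the count of calls between the groups was 4 with DESeq2, 4 with the replicate block and 19 with the replicate block in DESeq2. It was 55, 3 and 7 with the replicate block without replicate 1, 2 and 3, and 0 to 55 over all fits that left out libraries or pairs. In those blocked fits Ret had -0.060 without replicate 1 and Gfra1 had -0.030 without replicate 3. The block changed no call for the 4 genes.

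Between passages the count of all genes called ran from 3494 (without wild-type replicate 3) to 8572 on leaving out a library, and was 3894 without Ephb2-KO replicate 3. Over the same fits the log2 fold change ran from 0.58 to 0.92 for Gfra1, from -1.52 to -1.26 for Gfra2, from 0.68 to 1.02 for Gfra3 and from 1.08 to 1.28 for Ret. Between replicates 2 and 1 the count ran from 1477 (without wild-type replicate 2) to 3553, and was 1642 without Ephb2-KO replicate 2. The log2 fold change of Ret ran from 0.20 to 0.59. Fits without a library leave fewer samples. The cause of the changes was not tested otherwise. With 3 lines a group, and passage tied to replicate number 3, neither a small effect of the guide on these genes nor an effect of passage apart from that of the number can be measured here.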
